A study of Mus musculus with 6 samples.

Results

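The genes of the LSm proteins Lsm1 to Lsm8 were examined in a set of splicing scores from mouse cortical neurons. They were chosen by symbol, and 7 of the 8 symbols were present in 8 of the 15705 gene rows of the table, because Lsm3 was listed under a pair of gene identifiers. The symbol Lsm8 was not among the names in the table, but the row named Naa38 carries the Ensembl identifier that GENCODE M21 and RefSeq assign to Lsm8. That row is described as Lsm8 beside the others and is left out of every count of LSm rows.

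Cortical neurons from C57BL/6 embryos at embryonic day 18 were cultured for 7 days and then exposed to lentivirus for 3 days. The 3 control libraries came from cultures given the vector control FCK1.3GW, which carries EGFP behind a short CaMKII promoter, and the 3 N40K libraries from cultures given FCK1.3GW-N40K, which carries N40K in its place. Both viruses hold the same woodchuck hepatitis virus element and long terminal repeats. N40K is an N-terminal fragment of U1-70K, a protein of the U1 snRNP, and the series asks how U1 snRNP dysfunction of the kind found in Alzheimer's disease affects splicing in neurons. The CaMKII promoter is best known from excitatory neurons, and the labels do not state what share of the cells took up virus. Whether each replicate was its own culture is not stated in the labels, so the p-values rest on the spread among these samples alone, and that spread may be technical.

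LSm proteins assemble into rings that hold the U-rich 3′ ends of RNA. The ring with Lsm8 stays in the nucleus, where it binds U6 snRNA and helps it join the U4/U6 snRNP of the spliceosome. The ring with Lsm1 works in the cytoplasm, where it binds the shortened tails of mRNAs together with the Pat1 protein and promotes removal of the cap. Lsm2, Lsm3, Lsm4, Lsm5, Lsm6 and Lsm7 are shared by both rings.

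The deposited value of a gene in a library is an Sd score, where Sd is taken to mean splicing deficiency. Scores of this kind usually relate unspliced to spliced reads of a gene, and a high one then stands for less complete splicing. The formula itself is not given in the sources used here. It is not an expression level, and the read depth behind it is unknown. The median score of all genes was 0.0127 to 0.0136 in the control libraries and 0.0146 to 0.0163 in the N40K libraries. The Snrnp70 gene, which encodes U1-70K, had a mean score of 0.0216 in control and 0.0233 in N40K neurons and did not pass the test (limma adjusted p = 0.376). Of all genes, 3372 had higher scores with N40K and 645 lower ones (limma, Benjamini-Hochberg adjusted p under 0.05). This split depended on how libraries were scaled. It was 1531 and 2883 once library medians had been made equal (median centring), 2022 and 1883 after quantile normalization, and 2235 and 1518 once the median deviation of the genes from their means had been set to 0 in each library (deviation centring). The median log2 change of all genes was 0.06 with scores as deposited and -0.07 after median centring. Scores were found for 6 of 6 neuron, 3 of 3 astrocyte, 2 of 3 microglia and 2 of 3 oligodendrocyte lineage markers, and they do not give the share of each cell type. Among these markers the microglial gene Csf1r rose 2.76-fold in score. Aif1, the other microglial marker with a score, had a ratio of 1.10 and overlapping groups (limma adjusted p = 0.4535). The part of microglia in the results below was not tested.

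The LSm genes are short and have few introns, and the sites where their exons end are shown here because U1 snRNP recognises the exon-intron border. In GENCODE M21 (GRCm38) the main coding transcripts of the LSm genes have 3 or 4 introns each, where the scored genes had a median of 9. Lsm7 is the shortest of them, at 2389 bases on chromosome 10 (80852821 to 80855209, minus strand), which places it at the 3.27th percentile of gene length among scored genes. Its 3 introns are 472 to 788 bases long. Lsm5 spans 3648 bases, Lsm2 4030, Lsm4 5505, Lsm3 6698, Lsm8 7173, Lsm6 16276 and Lsm1 18688. By annotation, Lsm3 was the one LSm gene that overlaps another gene, AC161456.1, on the same strand over 217 bases. The first 5′ splice site lay inside the RefSeq promoter window (GRCm38.p6) for 3 of the LSm genes. Capitals mark the last 3 exonic and first 6 intronic bases.
Lsm7, chr10:80855173-80855188, minus strand: agatgGCGGTGAGCat
Lsm2, chr17:34982078-34982093, plus strand: gcaccATGGTGGGTac
Lsm3, chr6:91516076-91516084, plus strand: CAGGTAAGT
The Lsm3 site equals the consensus CAGGTAAGT, read in the direction of the gene, at 9 of 9 positions, while those of Lsm7 and Lsm2 match it at 5. Among 705 scored genes whose first 5′ splice site could be read in the same way, 0.851% matched at 9 positions, 17.6% at 5, and the median was 6. These 705 are genes with a very short first exon and do not stand for all genes.

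The borders of Lsm7, the LSm gene with the clearest change in score, were set beside those of Lsm1, the one LSm gene whose N40K scores all lay above its control scores. The sequences below are exon-exon junctions of the GENCODE M21 transcripts, with 12 bases on each side and the last 3 bases of the upstream exon in capitals.
Lsm7 intron 1: gacaagatgGCGgacaaagagaaa
Lsm7 intron 2: gtggccgggAAGccagcggtatcc
Lsm7 intron 3: agtacatgaGAGaccctgatgacc
Lsm1 intron 1: aggacatcgACAaaaagcacttgg
Lsm1 intron 2: ttgatcaatTTGctaacttagtgc
Lsm1 intron 3: ctaggagaaATAgacctggagaag
The exon ended in AG before 2 of 3 introns of Lsm7 and before 0 of 3 introns of Lsm1. It did so before 2 of 4 introns in Lsm2 and in Lsm6, and 1 of 4 in Lsm4 and in Lsm5. For Lsm3 it was 1 of 3 and for Lsm8 0 of 3. Over the LSm genes, Lsm8 included, 9 of 28 introns (32.1%) followed an exon ending in AG, against 56.1% of the 154277 introns of the scored genes. These are descriptions of the annotation and carry no test.

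Among the LSm genes, Lsm7 fell in score with N40K, and the other rows did not pass the test. Scores of 0.0325, 0.0288 and 0.0257 in the control libraries became 0.0155, 0.0155 and 0.0146 in the N40K libraries. All 3 N40K scores lay far below the lowest control score, and the N40K libraries were closer to one another than the controls were. The mean went from 0.029 ± 0.0034 to 0.0152 ± 0.00052 (SD, n = 3), a ratio of 0.524. The log2 change of score + 0.01 was -0.63 ± 0.08 (SE), with a 95% interval from -0.82 to -0.43 (limma adjusted p = 0.00536). Lsm7 ranked 732 of 15705 by p. Without the pseudocount of 0.01 its log2 change was -0.93 (limma adjusted p = 0.00427). In control neurons Lsm7 had the second highest score of the LSm genes, and in N40K neurons its scores overlapped those of Lsm2.

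So 1 of 8 LSm rows was called lower and 0 were called higher, where 4.11% of all genes were called lower and 21.5% higher. At an unadjusted p under 0.05 1 row was higher (Lsm1) and 2 were lower (Lsm2 and Lsm7), where 31.2% of all genes were higher and 7.32% lower. The rows called lower were 4 after median centring (Lsm2, Lsm7 and both Lsm3 rows), 2 after quantile normalization and 2 after deviation centring. Of all genes, 18.4%, 12.0% and 9.67% were called lower in turn. The rows called higher were 0 under each of these scalings, where 9.75%, 12.9% and 14.2% of all genes were called higher. The median log2 change of the LSm rows was -0.10, and that of all genes 0.06. All 3 N40K scores lay below all 3 control scores in 3 of 8 rows (Lsm2, the first Lsm3 row and Lsm7), against 8.67% of all genes. They lay above in 1 row (Lsm1), against 33.6% of all genes. Of the 7 rows with a known gene length, 5 belong to the shortest 20% of scored genes (up to 8859 bases), in which 6.57% were called lower and 6.47% higher. The part of gene length in the LSm values was not tested.

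**Figure D1:**
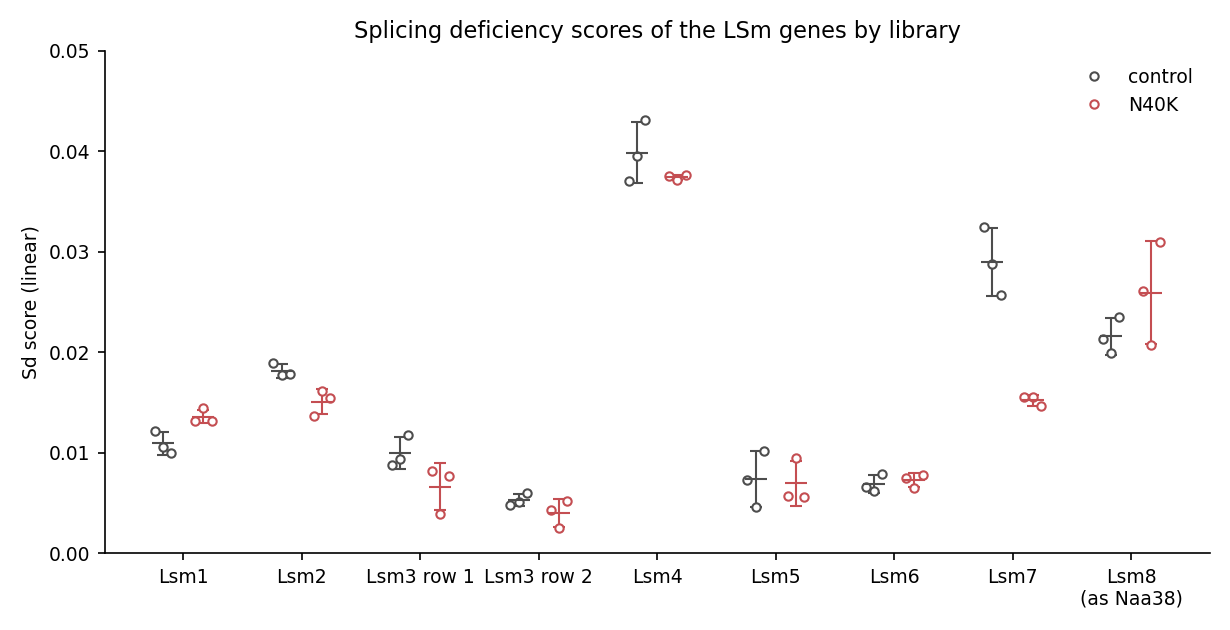
Sd scores (linear axis) of each LSm gene in the 3 control and 3 N40K libraries. Open points are libraries, and horizontal marks with bars are the mean ± SD. Lsm7 lies between 0.0257 and 0.0325 in control and between 0.0146 and 0.0155 in N40K neurons. Lsm3 row 1 is the row with the identifier still in GENCODE M21.

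Lsm1, the subunit that directs the ring to the cytoplasm, was the only one of the 8 rows with all N40K scores above the control scores. Its scores were 0.0122, 0.0106 and 0.01 in control and 0.0132, 0.0144 and 0.0132 in N40K neurons, so the highest control library and the lowest N40K libraries lay close together. The ratio of means was 1.24 and the log2 change 0.17 ± 0.06 (SE), which did not pass (limma adjusted p = 0.0783). It did not pass under any of the 18 alternatives either (adjusted p = 0.0686 to 0.603).

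Lsm8, the subunit of the nuclear ring, had scores of 0.0213, 0.0199 and 0.0235 in control neurons and 0.0261, 0.0207 and 0.031 in N40K neurons. The groups overlapped, since N40K replicate 2 lay within the control range. The log2 change was 0.18 ± 0.12 (SE), with a 95% interval from -0.11 to 0.47 (limma adjusted p = 0.334). The estimates of Lsm1 and Lsm8 lay side by side at 0.17 and 0.18, with an interval of 0.03 to 0.32 for Lsm1.

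Of the subunits shared by both rings, Lsm2 had the next lowest p after Lsm7. It scored 0.0189, 0.0177 and 0.0178 in control and 0.0137, 0.0161 and 0.0154 in N40K neurons, so the groups did not overlap. The ratio was 0.831 and the log2 change -0.17 ± 0.06 (SE), which did not pass with scores as deposited (limma adjusted p = 0.0945). Lsm2 passed after median centring (limma adjusted p = 0.0127), quantile normalization (0.0137) and deviation centring (0.028).

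Lsm3 had scores of 0.0088, 0.0094 and 0.0118 in control and 0.0082, 0.0039 and 0.0077 in N40K neurons in its first row, ENSMUSG00000034192. The groups did not overlap, and N40K replicate 2 stood well below the other two N40K libraries. The log2 change was -0.28 ± 0.12 (SE; limma adjusted p = 0.149), and without N40K replicate 2 it was -0.15. The second row, ENSMUSG00000090846, scored 0.0048, 0.0051 and 0.006 in control and 0.0043, 0.0025 and 0.0052 in N40K neurons, with overlap between the groups (log2 change -0.13, limma adjusted p = 0.267). The first row was 1.48 to 1.97 times the second in every library, and both were lowest in N40K replicate 2. The second identifier is not in GENCODE M21, and 9 symbols of the table were listed more than once, so both rows are reported as uncertain. After median centring both rows passed as lower (limma adjusted p = 0.0487 and 0.0412).

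Lsm4, Lsm5 and Lsm6 showed no difference beyond the spread between libraries. Lsm4, whose product has a long tail rich in arginine and glycine, had the highest score of the LSm genes in both groups. Its scores were 0.037, 0.0395 and 0.0431 in control and 0.0375, 0.0371 and 0.0376 in N40K neurons, so the N40K libraries lay within the control range. The 95% interval of its log2 change ran from -0.24 to 0.10 (limma adjusted p = 0.513). Lsm5 was the most variable, at 0.0073, 0.0046 and 0.0102 in control and 0.0057, 0.0095 and 0.0056 in N40K neurons, and its direction turned without control replicate 3, N40K replicate 1 or N40K replicate 3. The 95% interval of its log2 change was wide, from -0.39 to 0.32. Lsm6 scored 0.0066, 0.0062 and 0.0079 in control and 0.0075, 0.0065 and 0.0078 in N40K neurons (log2 change 0.03, interval -0.10 to 0.16), and its direction turned to lower under each of the 3 scalings.

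**Figure D2:**
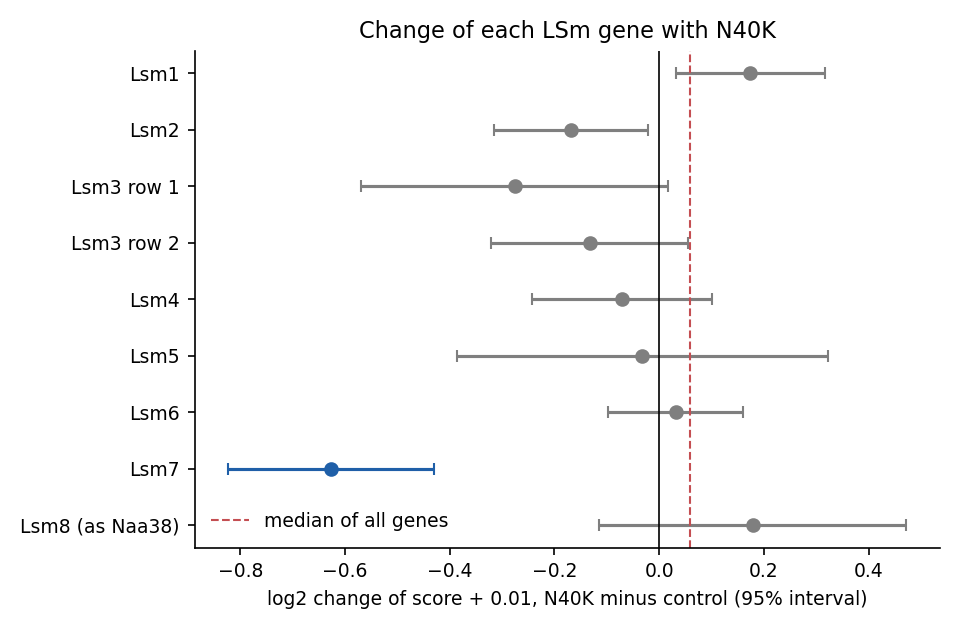
Log2 change of score + 0.01 (N40K minus control, horizontal axis) of each LSm gene with its 95% interval from limma. The dashed line is the median of all genes, 0.06. Lsm7, in blue, is the row that passed, and its interval from -0.82 to -0.43 lies below those of Lsm1, Lsm2, Lsm4, Lsm5, Lsm6, Lsm8 and the second Lsm3 row.

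In control neurons the order of mean scores was Lsm4, Lsm7, Lsm8, Lsm2, Lsm1, Lsm3 (first row), Lsm5, Lsm6 and Lsm3 (second row), from 0.0399 to 0.0053. The libraries of neighbours did not overlap from Lsm4 down to Lsm1, those from Lsm1 down to Lsm6 did, and the second Lsm3 row lay below Lsm6 without overlap. In N40K neurons Lsm8 took the place after Lsm4, and Lsm7, Lsm2 and Lsm1 followed with overlapping ranges. A score is formed within each gene, so this order is not one of RNA amounts.

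The profile of Lsm7 over the 6 libraries was compared with those of the 15704 other genes by the distance between their centred log2 values. The nearest were Spocd1, 6530411M01Rik, B4galt1, Slc7a6 and Gm9866, at distances of 0.122 to 0.173 and with log2 changes of -0.66 to -0.55. Among the LSm rows the nearest was Lsm2, at 0.592 and rank 807, followed by Lsm3 (first row) at rank 1073. Lsm1 stood at rank 9818. Profiles near Lsm7 share its fall between the groups, so the measure mostly reports that fall.

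**Figure D3:**
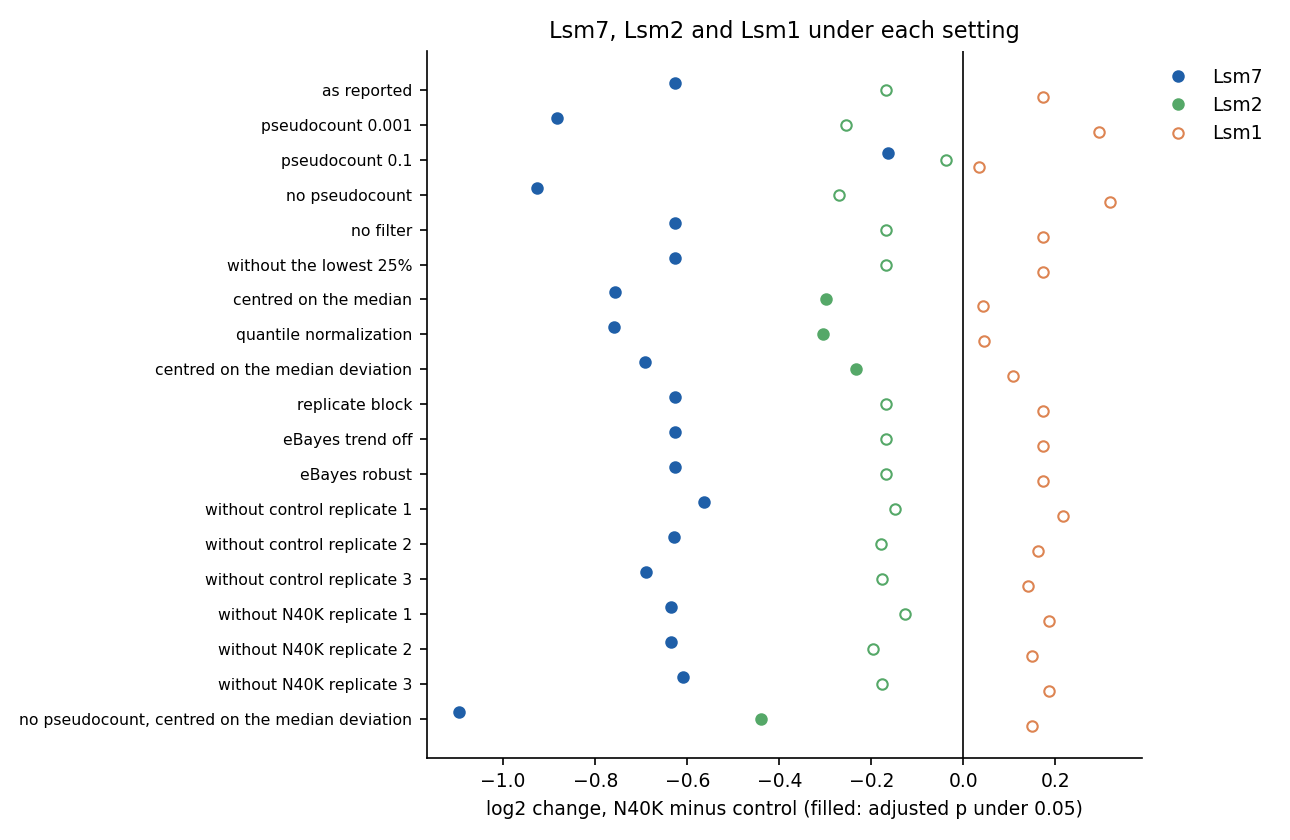
Log2 change (horizontal axis) of Lsm7, Lsm2 and Lsm1 with scores as deposited and under each of 18 alternatives. Filled points passed at an adjusted p under 0.05. Lsm7 passed under each setting shown, Lsm2 under 4 of them that rescale libraries, and Lsm1 under none.

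Most genes listed under decapping and 5′ to 3′ decay act with the cytoplasmic ring, though Dcps does not. Of these 11 genes 8 rose (Dcps included), 1 fell and 2 did not pass, where 21.5% of all genes rose and 4.11% fell. Their median log2 change was 0.16, beside 0.06 for all genes. Eif4enif1, whose product 4E-T links the cap-binding protein eIF4E to decay factors, scored 0.0061, 0.0053 and 0.0055 in control and 0.0126, 0.012 and 0.0127 in N40K neurons. Its groups were far apart, with a ratio of 2.21 (limma adjusted p = 0.00174). Edc3, an enhancer of decapping that itself has an LSm domain, rose 1.60-fold (limma adjusted p = 0.00953). Ddx6, the helicase of processing bodies, rose 1.56-fold from 0.00143 (limma adjusted p = 0.00419). After median centring its log2 change was -0.03, from 0.10 with scores as deposited. That centring takes the same amount from every log2 change, and changes of such low scores are small on this scale. The fall was in Patl2, a Pat1 protein known from oocytes, whose scores of 2.78, 1.5 and 2.11 became 1, 1.13 and 1.06 (limma adjusted p = 0.0308). That call ended without any 1 library other than control replicate 2 (adjusted p up to 0.0933).

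Patl1, Dcp2 and Xrn1 are named because they stand next to the Lsm1 ring in the pathway, and were picked after their values were seen. Patl1, the Pat1 protein of somatic cells, rose 1.30-fold (limma adjusted p = 0.027), the decapping enzyme gene Dcp2 1.26-fold (0.0347) and the exonuclease gene Xrn1 1.64-fold (0.022). The call of Dcp2 ended without any 1 library and that of Patl1 without any 1 library other than control replicate 1. The call of Xrn1 ended without control replicate 2 or 3 or N40K replicate 2 or 3, and those of Patl1 and Dcp2 also ended after each of the 3 scalings. Without control replicate 2 or control replicate 3, 4 of the 11 genes rose, where 10.3% and 10.4% of all genes rose, and 5 rose without N40K replicate 2 or N40K replicate 3, where 13.3% and 15.1% did. After median centring 4 rose and 1 fell (all genes 9.75% and 18.4%), after quantile normalization 5 and 1 (12.9% and 12.0%), and after deviation centring 4 and 1 (14.2% and 9.67%). The genes of this list had a median length of 44468 bases, against 5505 for the LSm genes. Of scored genes with 35034 to 78673 bases, the fifth that holds this median, 31.4% were called higher. Among the longest 20% of scored genes, from 78698 bases, 42.6% were. The part of length in this contrast was not tested.

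Shortening of the poly(A) tail comes before the Lsm1 ring binds, and 8 of 16 deadenylation genes rose while 0 fell, where 21.5% of all genes rose and 4.11% fell. At an unadjusted p under 0.05 10 were higher and 0 lower, where 31.2% and 7.32% of all genes were. After median centring 2 were called higher and 1 (Parn) lower, after quantile normalization 4 and 0, and after deviation centring 6 and 0. The shares of all genes are those given for the decapping list. Parn scored far below the pseudocount of 0.01, and all its deposited N40K scores lay above its control scores (ratio 1.25). The median length of these genes was 41221 bases, and its part in the counts was not tested. Pan3, of the Pan2-Pan3 deadenylase, had the smallest p, with scores of 0.0089, 0.0085 and 0.0085 in control and 0.0144, 0.0164 and 0.017 in N40K neurons (ratio 1.85, limma adjusted p = 0.00431). Cnot1, the scaffold gene of the separate CCR4-NOT deadenylase, rose 1.42-fold (limma adjusted p = 0.00632) and the ubiquitin ligase gene Cnot4 1.93-fold (0.0108). Both of these calls ended after median centring (limma adjusted p = 0.265 and 0.0821), and that of Cnot1 after quantile normalization (0.0926). Without control replicate 2 or control replicate 3 the count that rose was 4, where 10.3% and 10.4% of all genes rose.

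On the nuclear side, 1 of 11 genes of U6 snRNA processing and the U4/U6 snRNP rose and 0 fell, where 21.5% of all genes rose and 4.11% fell. At an unadjusted p under 0.05 2 were higher and 0 lower, where 31.2% and 7.32% of all genes were. The list had 0 genes called higher and 1 (Ppih) called lower after median centring and after quantile normalization, where 18.4% and 12.0% of all genes were called lower. The riser was Mettl16, which methylates U6 snRNA, at a ratio of 1.39 (limma adjusted p = 0.0203). Its call ended without any 1 library other than N40K replicate 1 (adjusted p up to 0.0653), after median centring (0.285) and after quantile normalization (0.0979). Sart3, which anneals U6 to U4 and binds the LSm ring, had scores of 0.0063, 0.0058 and 0.006 in control and 0.0069, 0.0088 and 0.0075 in N40K neurons (limma adjusted p = 0.0725). Without any 1 library, 0 to 2 genes of this list rose, where 1613 to 3729 of all 15705 genes rose.

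The Sm proteins form the related ring on the other spliceosomal snRNAs. Of 8 Sm core genes 2 fell and 0 rose, where 4.11% of all genes fell and 21.5% rose, and their median log2 change was -0.03. At an unadjusted p under 0.05 1 was higher (Snrpd3, called lower after median centring) and 2 lower, where 31.2% and 7.32% of all genes were. Snrpg, whose product takes the place in its ring that Lsm7 takes in the LSm rings, scored 0.0078, 0.0074 and 0.0083 in control and 0.0048, 0.0051 and 0.0052 in N40K neurons. Its groups did not overlap, at a ratio of 0.643 (limma adjusted p = 0.00533), beside 0.524 for Lsm7. Snrpf, the counterpart of Lsm6, also fell, at a ratio of 0.739 (limma adjusted p = 0.031), where Lsm6 had a ratio of 1.05. The call of Snrpf ended without any 1 library other than control replicate 2 (adjusted p up to 0.0929). After median centring, 6 of the 8 Sm core genes were called lower, beside 4 of the 8 LSm rows and 18.4% of all genes. Among these 6, Snrpd3 and Snrpn had all deposited N40K scores above their control scores (ratios 1.43 and 1.08). Snrpd2 had a ratio of 0.961 with overlapping groups. These low scores lie far below the pseudocount of 0.01, and median centring takes the same amount from every log2 change. The Sm core genes had a median length of 8008 bases.

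Edc3, whose product carries an LSm domain and which rose, was counted above with the decapping genes. Of 8 other LSm-domain genes, Atxn2 rose and 7 did not pass with scores as deposited, where 21.5% of all genes rose and 4.11% fell. At an unadjusted p under 0.05 1 was higher and 0 lower, where 31.2% and 7.32% of all genes were. Lsm11 and Lsm14a were called lower after median centring, and Lsm11 alone after quantile normalization and after deviation centring, where 18.4%, 12.0% and 9.67% of all genes were called lower. Lsm14a scored well below the pseudocount of 0.01, and its ratio with scores as deposited was 1.10, with overlapping groups. Atxn2, the ataxin-2 gene, scored 0.0049, 0.0046 and 0.0051 in control and 0.0112, 0.0124 and 0.0118 in N40K neurons, a ratio of 2.42 (limma adjusted p = 0.00158). Lsm10, a subunit of the U7 snRNP of histone mRNA processing, had a ratio of means near that of Lsm7 but scores of 0.0181, 0.0304 and 0.0532 in control and 0.0137, 0.0235 and 0.0176 in N40K neurons. These groups overlapped, and Lsm10 did not pass (limma adjusted p = 0.236). Lsm11, its partner in that snRNP, also did not pass (ratio 0.779, limma adjusted p = 0.171), and neither did Lsm12, Lsm14a or Lsm14b.

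**Figure D4:**
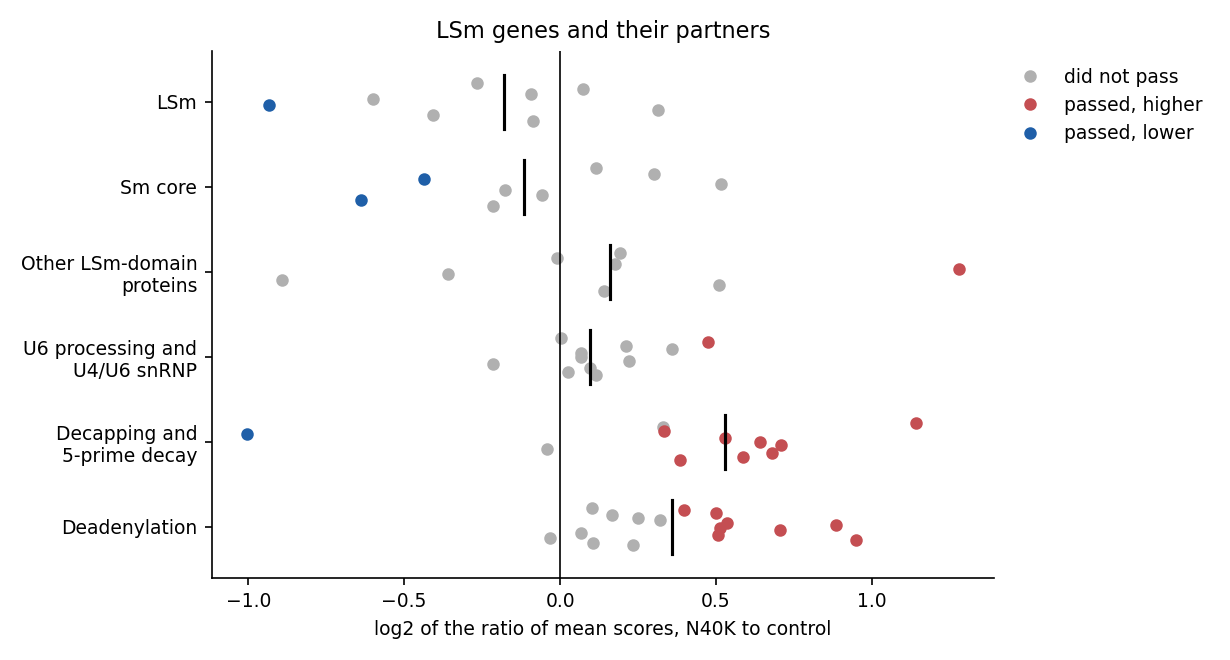
Log2 of the ratio of mean scores (N40K to control, horizontal axis) for the LSm rows and 5 lists of partners or relatives. Each point is a gene, black bars are list medians, and colours give the call of the limma test. The LSm and Sm core lists hold 1 and 2 genes called lower and 0 called higher, and the decapping and deadenylation lists 8 each called higher.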

How the data were processed

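Poly(A) RNA of 6 libraries was sequenced from stranded libraries as paired reads of 100 bases, per the labels' protocols. CASAVA, STAR, BWA, bedtools 2.16.1 and build mm9 appear in the submitters' processing notes, without their roles. The authors deposited an Sd score for each of 15705 genes and each library, with 4 decimals. The annotation and filters behind the score were not given in the sources used here. Columns were assigned by name, and 0 were unused.

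Log2(score + 0.01) was fitted for N40K against control over all genes with limma 3.58.1 in R 4.3.3 (eBayes with trend, 2-sided, Benjamini-Hochberg adjustment, threshold 0.05, libraries not scaled). A filter for a score above 0 in at least 3 libraries removed 0 genes. "Rose" and "fell" refer to scores that passed. This scale understates the change of low scores, so ratios of means are given. Median centring takes the same amount from every log2 change, so a low score can be called lower although its mean was higher. The members, 5 partner lists (54 genes) and tests were chosen with earlier results of these data known. Named were all LSm rows and, per list, all called genes up to 4, otherwise the 3 with the smallest p in each direction. Gene structures came from GENCODE M21 (GRCm38) by Ensembl identifier (14911 genes, 94.9%), and no coordinates were converted. Of 200 changes simulated among 15705 genes, the fit recovered 24%, 52%, 72% and 94% at log2 sizes of 0.25, 0.5, 1 and 2. Of 15505 unchanged genes it called 7. The simulation held no shift between libraries and far fewer changes than were called here, so these rates need not hold for the data. Alternatives were other pseudocounts, filters, scalings and eBayes settings, a replicate block and each library left out.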

Additional observations from a re-analysis of the deposited data

How the results depend on the processing

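Lsm7 kept its direction and its call under all 18 alternatives, with a log2 change of -1.10 to -0.16 and an adjusted p of 0.00295 to 0.0314. The smallest change came with a pseudocount of 0.1, which is large beside these scores. The count of LSm rows called higher was 0 under each, where 1531 to 3729 of all genes were called higher. Of all genes, 303 to 2883 were called lower under these alternatives. The count of LSm rows called lower was 4 after median centring, with both Lsm3 rows among the 4. It was 2 after quantile normalization, 2 after deviation centring, and 2 after deviation centring of log2 scores with no pseudocount, which was added once the data had been seen. The log2 change of Lsm6 turned to -0.10, -0.076, -0.034 and -0.091 under these 4 fits in turn. That of Lsm5 was -0.15 to 0.084 with a library left out. After median centring those of Dcps and Ddx6 turned to -0.0034 and -0.033, from 0.127 and 0.098 with scores as deposited. Median centring takes the same amount from every log2 change, and that amount exceeded both of these. Dcps and Ddx6 scored well below the pseudocount of 0.01, where log2 changes are small (ratios 1.44 and 1.56). The cause of the turn of Lsm5 was not tested. Over all genes, the 4017 called became 2451 when the 25% of genes with the lowest mean scores were dropped, where fewer genes are tested, and 1947 to 4215 with a library left out. With the replicate number as a block, 2098 of 15705 genes were called, 1770 higher and 328 lower. Lsm7 kept its call in that fit (limma adjusted p = 0.0314), and 4 of 11 decapping and 4 of 16 deadenylation genes rose. Deviations of same-numbered libraries correlated at -0.0712, 0.0376 and -0.0201 across genes, and those of differently numbered libraries at -0.0431 to 0.0642. With 3 libraries per group these values cannot tell whether a number marks a shared culture, and the labels do not say. Depth is unknown, so its effect on the scores could not be examined.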
